A study of Homo sapiens with 8 samples.

Results

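The knockdown of MITF in COLO829 cells that received only the solvent DMSO was measured across all genes, as the difference between 2 arrays of cells with a hairpin against MITF and 2 arrays of cells with a scrambled hairpin. These 4 arrays are part of a set of 8, and the other 4 repeat the same hairpin contrast under the BRAF inhibitor PLX4032. The arrays were chosen by their labelled hairpin and treatment alone. COLO829 is an established line of human melanoma cells with an activating mutation in BRAF. Every group had been infected with a pGIPZ vector, a lentiviral carrier of short hairpins, and selected in puromycin for 2 days. The cells then stood for 24 h in DMSO (groups shSCR_DMSO and shMITF_DMSO) or in 1 µM PLX4032 (groups shSCR_PLX4032 and shMITF_PLX4032). The labels name 1 hairpin against MITF, so changes seen with it were not compared with those of any other, and the findings are those of 1 cell line.

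MITF is a basic helix-loop-helix leucine zipper transcription factor that binds E-box sequences, among them the M-box of pigment gene promoters. It is required for the melanocyte lineage, where it drives the genes of melanin synthesis and of the melanosome, the organelle in which melanin is made. In melanoma its level is commonly related to cell state: cells with much MITF tend to be pigmented and dividing, and cells with little MITF tend to be invasive. TFE3, TFEB and TFEC are its close relatives and bind the same kind of sequence.

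Levels are log2 intensities for 18404 genes, each read by the probe set with the highest mean over all 8 arrays among those with a single gene symbol, so a difference of 1 is a 2-fold change. Changes are knockdown minus scrambled, given ± SE from a limma fit over all 8 arrays (2 arrays per group), and a gene was called where the two-sided limma p-value, adjusted over all genes by the Benjamini-Hochberg method, was under 0.05. Below, rose and fell refer to called genes only. The labels do not say whether arrays A and B of a group came from separate cultures, so p-values measure only how far these samples scatter, a scatter that may be technical, and the number of arrays limits the precision. Within each group the 2 arrays correlated across genes with Pearson's r of 0.997 to 0.998, and the median SE of a change was 0.0939. Melanocyte lineage markers averaged between 9.67 and 10.09 on the 4 DMSO arrays, against 4.98 to 5.19 for leukocyte, 5.52 to 5.61 for fibroblast, 4.67 to 4.79 for keratinocyte and 5.20 to 5.31 for endothelial markers. RNA was taken from whole cultures, so fewer cells of a kind and less RNA per cell cannot be told apart.

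MITF itself read 10.44 and 10.46 on the scrambled arrays and 9.57 and 9.47 on the knockdown arrays. Both knockdown arrays lay below both scrambled arrays, a 1.91-fold fall (-0.93 ± 0.080, limma adjusted p = 8.28e-06). The knockdown was therefore partial at the level of RNA. Of its relatives, TFE3 read 8.77 and 8.92 on the scrambled arrays and 9.24 and 9.22 on the knockdown arrays and rose by 0.38 ± 0.089 (limma adjusted p = 0.00752). TFEB changed by 0.19 ± 0.12 and TFEC by -0.21 ± 0.11, and neither was called.

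The knockdown changed many genes by a little and a few by a lot. Of the 18404 genes, 6114 were called (33.2%), of which 2655 rose (14.4% of all genes) and 3459 fell (18.8%), and the median change over all genes was 0.02. Of the called genes 1948 changed at least 1.5-fold and 647 at least 2-fold. Rises dominated the far end: 342 genes rose and 305 fell at least 2-fold, 72 rose and 27 fell at least 4-fold, and 17 rose and 3 fell at least 8-fold. In all 6114 called genes the knockdown arrays did not overlap the scrambled arrays, but this was also so for 12554 genes in all (68.2%), so a lack of overlap alone says little with 2 arrays a side. Directions were not even across levels. With the genes split by mean level into 4 sets of 4601, 6.02% rose and 1.74% fell in the lowest set, 922 genes rose and 584 fell in the next, 15.5% and 32.0% in the third and 16.1% and 28.7% in the highest.

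**Figure D1:**
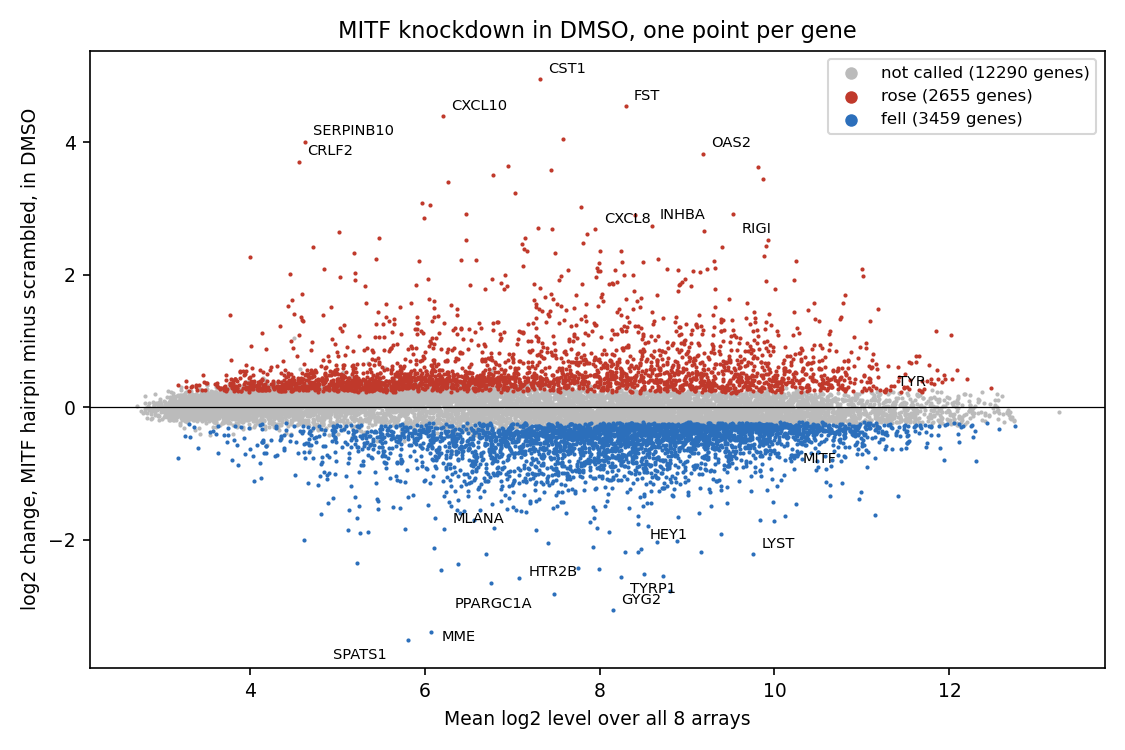
Log2 change on MITF knockdown in DMSO (vertical axis) against the mean log2 level over all 8 arrays (horizontal axis), 1 point per gene, red for the 2655 genes that rose, blue for the 3459 that fell and grey for genes not called. The farthest points lie above the zero line, and most called genes of middle and high level lie below it.

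The pigment programme did not fall as 1 block. Among the 11 measured genes of melanin synthesis and the melanosome membrane, 7 fell and 1 rose (median change -0.39). TYRP1, a melanosomal enzyme that stabilises tyrosinase, read 8.08 and 8.20 on the scrambled arrays and 5.54 and 5.63 on the knockdown arrays, a 5.87-fold fall (-2.55 ± 0.098, limma adjusted p = 3.72e-08). MLANA, a melanosome protein used as a melanoma antigen, read 6.17 and 6.30 on the scrambled arrays and 4.32 and 4.47 on the knockdown arrays (-1.83 ± 0.095). Both genes separated the groups by far more than the gap between replicate arrays. The melanosomal anion channel gene OCA2 (-0.93 ± 0.081) and PMEL (-0.80 ± 0.10), which forms the fibrils of the melanosome, fell by less, as did GPNMB (-0.44 ± 0.092), TPCN2 (-0.39 ± 0.080) and the copper transporter gene ATP7A (-0.34 ± 0.085). TYR, the rate-limiting enzyme of melanin synthesis, read 10.88 and 10.99 on the scrambled arrays and 11.24 and 11.10 on the knockdown arrays. Its change of 0.23 ± 0.088 was not called (limma adjusted p = 0.0644), although the same or a slightly larger change was called as a rise in 5 alternative settings (values 0.23 to 0.27, limma adjusted p between 0.0148 and 0.0423). The melanosome receptor gene GPR143 changed by 0.28 ± 0.10 and SLC45A2 by -0.28 ± 0.11, neither called, and the ion exchanger gene SLC24A5 rose by 0.26 ± 0.080. Leaving out 1 array at a time, the number that rose was 0 without knockdown array A or knockdown array B or scrambled array B. GPNMB lost its call without knockdown array B, ATP7A without knockdown array B or scrambled array B and SLC24A5 without any 1 of the 4 arrays or in a fit of the 4 DMSO arrays alone.

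Promoters of several of these genes hold the letters of an M-box, CATGTG on either strand. The windows searched ran from 250 bases before to 50 after the RefSeq start (build GRCh38.p14), and 14228 of the 18404 genes had one. The letters occurred in 6 of 9 windows of the melanin list (66.7%), against 8.25% of all windows, 8.33% of the windows of the melanosome transport list and 26.3% of those of other reported targets. The genes with the letters did not share a direction: of those 6 genes 3 fell (TYRP1, OCA2 and GPNMB), SLC24A5 rose, and TYR and GPR143 were not called. Of all genes that fell at least 2-fold 7.98% held the letters, and of those that rose at least 2-fold 10.3%. Another E-box sequence, CACGTG, occurred in 8.88% of all windows. Its share was 10.1% among genes that fell at least 2-fold and 6.08% among those that rose at least 2-fold. It occurred in 1 of 9 windows of the melanin list, 3 of 12 of the transport list and 4 of 19 of other reported targets. The stretches below show TYRP1 and TRIM63, a muscle ubiquitin ligase known as an MITF target, with 2 copies each, and OCA2 and LYST with 1 copy. All of these genes fell, TYRP1 (-2.55) and TRIM63 (-1.56) with 2 copies and LYST (-2.21) and OCA2 (-0.93) with 1. As the genes were picked, they cannot show whether the size of a fall goes with the number of copies. TYR beside them carries a pair of copies and was not called. Capitals mark CATGTG or its reverse complement, and the stretches run 5′ to 3′ along the strand of the gene, upstream of its start.
TYRP1, chr9:12693221-12693384 (+ strand): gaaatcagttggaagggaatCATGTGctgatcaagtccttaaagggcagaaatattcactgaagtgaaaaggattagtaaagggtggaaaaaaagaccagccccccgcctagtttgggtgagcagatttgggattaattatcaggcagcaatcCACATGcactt
TRIM63, chr1:26067655-26067798 (- strand): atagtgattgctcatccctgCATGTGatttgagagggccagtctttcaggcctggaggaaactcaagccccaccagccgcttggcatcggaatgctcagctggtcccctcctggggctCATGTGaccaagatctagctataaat
OCA2, chr15:28099443-28099488 (- strand): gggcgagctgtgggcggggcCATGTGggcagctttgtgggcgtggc
LYST, chr1:235883723-235883768 (- strand): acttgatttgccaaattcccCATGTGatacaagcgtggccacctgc
TYR, chr11:89177751-89177874 (+ strand): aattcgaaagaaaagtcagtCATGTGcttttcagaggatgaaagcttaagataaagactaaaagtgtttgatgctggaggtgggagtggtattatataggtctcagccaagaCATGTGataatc
A match is a description of the letters and not evidence of binding.

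Genes of melanosome transport moved in both directions, with more falls than rises. Of 19 measured members 11 fell and 2 rose (median -0.36). LYST, which controls the size of lysosome-related organelles, read 10.12 and 10.00 on the scrambled arrays and 7.88 and 7.82 on the knockdown arrays, a fall of 4.63-fold (-2.21 ± 0.081, limma adjusted p = 3.04e-08). RAB27A (-1.48 ± 0.15) and its partner MLPH (-1.05 ± 0.13), which link melanosomes to the actin motor MYO5A, fell, and so did HPS4 (-1.06 ± 0.078), part of an exchange factor for RAB32 and RAB38. The second part of that exchange factor, HPS1, rose by 0.35 ± 0.079, and the largest rise in the list was that of HPS5 (0.96 ± 0.11). HPS1 lost its call without knockdown array B.

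Outside these lists 23 further reported targets of MITF were measured, of which 16 fell and 2 rose (median -0.50). The glycogenin gene GYG2 read 9.12 and 9.06 on the scrambled arrays and 6.09 and 5.96 on the knockdown arrays, and PPARGC1A, a coactivator of mitochondrial biogenesis, read 8.17 and 8.20 on the scrambled arrays and 5.66 and 5.09 on the knockdown arrays. Both were lower on both knockdown arrays, GYG2 by 8.36-fold and PPARGC1A by 7.03-fold. TRIM63 (-1.56 ± 0.11) and the endosomal fusion gene STX7 (-1.26 ± 0.080) followed. The adhesion gene CEACAM1, which is also counted as a target, rose by 1.0 ± 0.10, and so did the amino acid transporter gene SLC1A4 (0.40 ± 0.079). The channel gene TRPM1 read 5.42 and 5.32 on the scrambled arrays and 5.05 and 4.89 on the knockdown arrays and fell by little (-0.40 ± 0.099, limma adjusted p = 0.0108). The list was drawn up with earlier results of these data known, so its direction is not independent evidence. TRPM1 lost its call without knockdown array B or scrambled array A.

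**Figure D2:**
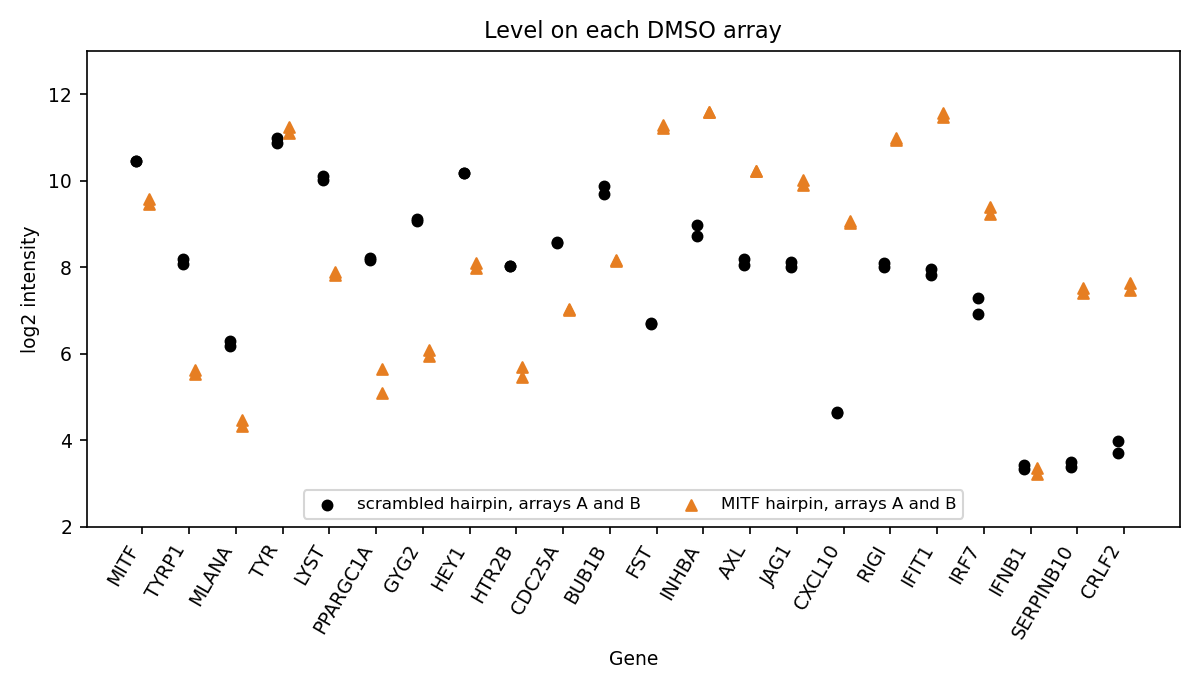
Log2 intensity (vertical axis) of 22 genes on the 4 DMSO arrays, with black circles for scrambled arrays A and B and orange triangles for knockdown arrays A and B. For most genes the gap between groups is several times the gap between replicate arrays; TYR and IFNB1 are the exceptions, with groups close together.

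Regulators of the lineage moved in both directions. Of 20 measured genes 7 rose and 4 fell. ETS1 read 10.04 and 10.08 on the scrambled arrays and 8.42 and 8.41 on the knockdown arrays and fell by 1.64 ± 0.079, while the neurotrophin receptor gene NGFR (1.51 ± 0.077), the retinoid receptor gene RXRG (1.36 ± 0.077) and the stem cell factor gene SOX2 (1.28 ± 0.11) rose. These last 3 genes, used as marks of a neural crest-like state, were the largest rises of the list. Of its 20 members 9 were not called and the median change was 0.12, so the 3 do not stand for the list. PAX3, an upstream regulator of MITF, fell by 0.63 ± 0.089, and SOX10, the other, changed by 0.13 ± 0.097 and was not called. Among 10 transcription factors of epithelial-mesenchymal transition, SNAI1 (1.44 ± 0.092), ZEB1 (0.68 ± 0.095), PRRX1 (0.53 ± 0.12) and FOXC2 (0.39 ± 0.13) rose and ZEB2 (-0.30 ± 0.080) fell. The remaining members, SNAI2 (-0.03 ± 0.091), SNAI3 (0.21 ± 0.12), TWIST1 (0.12 ± 0.082), TWIST2 (0.21 ± 0.091) and TCF4 (0.05 ± 0.081), were not called. In fits without 1 array, the number that rose was 2 without knockdown array A, and the number that fell was 0 without knockdown array A or scrambled array B. Of 17 glial and myelin genes 8 rose and 2 fell, led by the adhesion genes CADM4 (1.57 ± 0.092) and CDH19 (1.39 ± 0.089), with L1CAM (-0.73 ± 0.083) falling and SOX8 (0.68 ± 0.11) rising. For these, the number that rose was 4 without knockdown array A, and the number that fell was 1 without knockdown array A or scrambled array B. PRRX1 lost its call without knockdown array A, FOXC2 without knockdown array A or knockdown array B or scrambled array B or after a repeated quantile normalization or with arrays centred on their medians and ZEB2 without knockdown array A or scrambled array B or as the mean of all its probe sets.

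Of the interferon lists, the antiviral effectors rose almost as a whole, and the ligands, receptors, sensors and transducers rose only in part. When a cell senses foreign or misplaced RNA through RIGI and IFIH1, it makes interferons, and these signal through receptors, JAK kinases and STAT and IRF factors to raise a set of antiviral genes. The ligands themselves read low: IFNB1, named after its values were seen, read 3.35 and 3.42 on the scrambled arrays and 3.35 and 3.23 on the knockdown arrays, a change of -0.09 ± 0.091 that was not called. The lambda interferon genes IFNL1 (0.64 ± 0.11), IFNL2 (0.60 ± 0.17) and IFNL3 (0.63 ± 0.18) rose from low levels, and the near-identical IFNL2 and IFNL3 may share probes. With the receptor subunit IFNGR2 (0.68 ± 0.086), 7 of 14 ligand and receptor genes rose and 0 fell. When 1 array was left out, the number that rose was 3 without knockdown array A or knockdown array B. IFNL2 lost its call without knockdown array A or scrambled array A or after a repeated quantile normalization and IFNL3 without knockdown array A or knockdown array B or scrambled array B.

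The RNA sensors rose strongly. RIGI read 8.10 and 7.99 on the scrambled arrays and 10.98 and 10.94 on the knockdown arrays, a 7.54-fold rise (2.92 ± 0.20, limma adjusted p = 1.97e-06). IFIH1 read 5.99 and 6.0 on the scrambled arrays and 8.74 and 8.66 on the knockdown arrays (2.71 ± 0.15). Both sensors were higher on both knockdown arrays, with little spread between replicates. Their regulator DHX58 (2.11 ± 0.13) and the endosomal RNA receptor TLR3 (1.22 ± 0.093) also rose. In all 8 of 17 sensor and adaptor genes rose and 1 fell, the latter being the kinase gene TBK1 (named after its values were seen; -0.40 ± 0.087). In leave-one-out fits the number that rose was 4 without knockdown array A.

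Of the 8 signal transducers, IRF7, an interferon-induced factor that amplifies interferon production, read 7.30 and 6.93 on the scrambled arrays and 9.22 and 9.38 on the knockdown arrays (2.19 ± 0.15). IRF1 (1.39 ± 0.10), IRF9 (1.25 ± 0.17) and STAT3 (0.23 ± 0.079) rose as well. The kinase gene JAK2 went the other way, from 7.43 and 7.45 on the scrambled arrays to 6.29 and 6.24 (-1.18 ± 0.098). TYK2 (-0.08 ± 0.095), JAK1 (0.01 ± 0.087) and IRF2 (0.22 ± 0.084) were not called. The inhibitors that normally follow interferon signalling rose in part: USP18 (1.85 ± 0.18), TRIM21 (1.17 ± 0.11), SOCS3 (0.46 ± 0.10) and SOCS1 (0.40 ± 0.13) rose, and PIAS1 (-0.16 ± 0.081), PTPN6 (0.08 ± 0.081), PTPN2 (-0.01 ± 0.089) and IRF2BP1 (-0.02 ± 0.077) were not called. STAT3 lost its call without any 1 of the 4 arrays or in a fit of the 4 DMSO arrays alone, SOCS1 without knockdown array A or knockdown array B or scrambled array A or after a repeated quantile normalization and SOCS3 after a repeated quantile normalization.

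Antiviral effectors rose almost without exception, 42 of 44 with 0 falling (median 1.73, against 0.02 for all genes). Their mean level was 7.67 and 7.58 on the scrambled arrays and 9.37 and 9.33 on the knockdown arrays. XAF1 (4.05 ± 0.21), a proapoptotic factor, and OAS2 (3.83 ± 0.27), which makes the activator of an RNA-degrading enzyme, led with IFIT1 and IFIT2, which bind viral RNA or block its translation. IFIT1 read 7.97 and 7.82 on the scrambled arrays and 11.57 and 11.46 on the knockdown arrays, 12.3-fold higher (3.62 ± 0.32, limma adjusted p = 1.05e-05). IFIT2 (3.59 ± 0.12), IFI44L (3.45 ± 0.30) and RSAD2 (3.40 ± 0.15) also stood among the 30 largest rises of all genes, as did RTP4 (2.70 ± 0.13), an interferon-induced chaperone of receptors that is not in the list. ISG15, a ubiquitin-like modifier chosen for its promoter, read 6.59 and 6.36 on the scrambled arrays and 8.27 and 8.40 on the knockdown arrays (1.86 ± 0.13). The exceptions were MX1 (0.19 ± 0.084) and IFITM2 (0.25 ± 0.11), named after their values were seen, which were not called.

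Promoter letters of the interferon response were searched in the same windows. The core of the interferon-stimulated response element, GAAANNGAA on either strand, occurred in 24 of 35 windows of the antiviral list (68.6%), against 6.83% of all windows, 17.9% of genes that rose at least 2-fold and 7.56% of those that fell at least 2-fold. Of the 24 genes with the letters 23 rose and 1 was not called. As 42 of the 44 measured members of the list rose, this count does not set the genes with the letters apart. The stretches below were picked to show single and repeated copies in 4 genes that rose, and capitals mark the core, overlapping copies running together. Sequences are RefSeq's, build GRCh38.p14, along the strand of the gene and upstream of its start.
IFIT1, chr10:89392488-89392549 (+ strand): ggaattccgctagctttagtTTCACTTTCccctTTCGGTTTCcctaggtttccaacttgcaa
ISG15, chr1:1013364-1013424 (+ strand): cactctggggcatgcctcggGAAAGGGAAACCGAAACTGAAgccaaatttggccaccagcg
RTP4, chr3:187368323-187368384 (+ strand): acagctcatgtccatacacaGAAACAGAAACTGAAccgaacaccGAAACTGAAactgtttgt
RSAD2, chr2:6865786-6865834 (+ strand): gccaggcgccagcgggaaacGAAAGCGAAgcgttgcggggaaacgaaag
IFIT1 and RTP4 carry a pair of separate runs each, and in ISG15 overlapping copies form 1 run.

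Antigen presentation followed to a smaller degree. Of 14 measured genes of class I processing 9 rose and 0 fell (median 0.43), led by the peptide transporter TAP1 (1.28 ± 0.12), the immunoproteasome subunit PSMB9 (0.80 ± 0.088), the peptidase ERAP1 (0.73 ± 0.079) and B2M (0.66 ± 0.086), the light chain of class I. Among 9 class II genes (3 of 9 called, near the 33.2% of all genes) HLA-DMB (0.63 ± 0.099) and the master regulator CIITA (0.30 ± 0.090) rose. HLA-DMA (0.72 ± 0.11) is uncertain, as its probe sets were called in opposite directions and their mean changed by -0.13. HLA-DOA (0.17 ± 0.12), CTSS (0.16 ± 0.094), HLA-DQB1 (-0.13 ± 0.13), HLA-DPA1 (0.12 ± 0.16), HLA-DPB1 (-0.08 ± 0.16) and HLA-DQA1 (0.00 ± 0.098) were not called. Of 21 checkpoint and natural killer cell ligand genes 6 rose and 2 fell (8 of 21 called, near the 33.2% of all genes). IDO1, a tryptophan-degrading enzyme induced by interferon, read 3.79 and 3.63 on the scrambled arrays and 5.65 and 5.80 on the knockdown arrays (2.02 ± 0.12). TNFRSF14, a ligand of lymphocyte checkpoints, read 9.13 and 9.16 on the scrambled arrays and 7.93 and 7.73 on the knockdown arrays and fell by 1.32 ± 0.090, so the list held a large change in each direction. CD274, which encodes PD-L1, rose by 0.49 ± 0.088 and NECTIN2 by 0.49 ± 0.080. Without 1 array, the number that rose was 3 without knockdown array A or knockdown array B, and the number that fell was 1 without scrambled array B. CIITA lost its call without knockdown array B or scrambled array B or with robust, level-dependent moderation or after a repeated quantile normalization.

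Among 33 chemokines and cytokines 15 rose and 1 fell. CXCL10, which attracts T cells, read 4.63 and 4.67 on the scrambled arrays and 9.06 and 9.02 on the knockdown arrays, 21-fold higher (4.39 ± 0.079, limma adjusted p = 2.79e-10). CXCL8, which attracts neutrophils, read 7.86 and 8.21 on the scrambled arrays and 10.71 and 10.75 on the knockdown arrays (2.70 ± 0.11). IL11 (1.94 ± 0.099) and IL24 (1.62 ± 0.20) came next. CXCL9, a close relative of CXCL10 named after its values were seen, changed by -0.25 ± 0.091 and was not called. In fits that leave out 1 array, the number that fell was 0 without knockdown array B. The NF-kB list of 15 genes split: the subunits NFKB1 (1.07 ± 0.094), RELB (1.04 ± 0.10) and NFKB2 (0.85 ± 0.091) rose, whereas the inhibitor-like NFKBIZ fell (-0.66 ± 0.078), with 4 rises and 4 falls in all. Leukocyte markers beside these results were few: PTPRC, the pan-leukocyte marker, read 3.41 and 3.47 on the scrambled arrays and 3.34 and 3.20 on the knockdown arrays (-0.17 ± 0.083, not called), and of 7 markers CD14 (0.85 ± 0.11) and CD68 (0.28 ± 0.097) rose. CD3E (0.06 ± 0.11), MS4A1 (-0.03 ± 0.12), ITGAM (0.15 ± 0.11) and LYZ (0.00 ± 0.097) were not called. The called share of the leukocyte markers was 28.6%, below the 33.2% of all genes. For the markers, the number that rose was 1 without any 1 of the 4 arrays. Their part in the results on immune genes was not tested. CD68 lost its call without any 1 of the 4 arrays.

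In the activin and TGF-beta pathway the largest changes sat at the level of ligand and antagonist. FST, which encodes follistatin, a soluble trap of activin, read 6.68 and 6.71 on the scrambled arrays and 11.20 and 11.28 on the knockdown arrays, a 23.4-fold rise (4.55 ± 0.091, limma adjusted p = 4.31e-10). INHBA, the activin A subunit that follistatin binds, read 8.72 and 8.96 on the scrambled arrays and 11.59 and 11.57 on the knockdown arrays, a 6.69-fold rise (2.74 ± 0.11). Ligand and trap were thus both higher on both knockdown arrays. The decoy receptor gene BAMBI (1.16 ± 0.086) and the target gene ID1 (1.05 ± 0.089) also rose, and in all 11 of 33 members rose and 5 fell. When single arrays were left out, the number that fell was 2 without knockdown array A or scrambled array B and 1 without knockdown array B.

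The NOTCH pathway changed at both ends. JAG1, a ligand, read 8.01 and 8.12 on the scrambled arrays and 9.90 and 10.01 on the knockdown arrays (1.88 ± 0.095), and HEY1, a repressor that NOTCH signals induce, read 10.19 and 10.18 on the scrambled arrays and 8.09 and 7.98 on the knockdown arrays, a 4.41-fold fall (-2.14 ± 0.096, limma adjusted p = 8.28e-08). The ligand therefore rose while this target fell, and the ligand DLL4 (0.72 ± 0.10) rose and HES6 (-0.65 ± 0.088) fell. Of 25 members 8 rose and 4 fell. Without single arrays, the number that rose was 5 without knockdown array A or scrambled array B, and the number that fell was 2 without knockdown array B or scrambled array B. In the WNT pathway 8 of 35 members rose and 6 fell (14 of 35 called, near the 33.2% of all genes). The soluble WNT antagonist SFRP1 (1.28 ± 0.081) and the receptor FZD8 (0.83 ± 0.11) rose, and the receptor-degrading ligase RNF43 (-0.83 ± 0.11) fell, with the nuclear effector TCF7L2 (0.77 ± 0.086) rising.

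Among 27 receptor tyrosine kinases 10 rose and 4 fell. AXL, a receptor tied to the invasive state, read 8.06 and 8.19 on the scrambled arrays and 10.21 and 10.22 on the knockdown arrays (2.09 ± 0.080), and FLT1, a VEGF receptor, rose by 1.61 ± 0.10. Another VEGF receptor, KDR (-0.93 ± 0.084), and MET (-0.90 ± 0.092), a reported MITF target, fell. In fits without 1 array, the number that rose was 6 without knockdown array A or scrambled array A, and the number that fell was 2 without knockdown array B. Feedback genes of the MAPK pathway, which report ERK activity, rose in 9 of 20 cases and fell in 2: DUSP5 (1.86 ± 0.095), EGR1 (1.34 ± 0.14), FOS (1.34 ± 0.11) and SPRY4 (0.95 ± 0.10) rose most. For these, the number that fell was 1 without knockdown array B or scrambled array B. YAP and TEAD target genes rose in 7 of 16 cases, with 2 falling. CCN2, a matricellular protein, read 8.34 and 8.64 on the scrambled arrays and 10.37 and 10.35 on the knockdown arrays (1.87 ± 0.11), followed by CCN1 (0.80 ± 0.11), and WWC1 fell by 0.48 ± 0.083. In leave-one-out fits the number that fell was 1 without any 1 of the 4 arrays. Of 22 genes of the invasive state with little MITF 11 rose and 1 fell (median 0.27), including the matrix genes TNC (1.93 ± 0.082) and VCAN (1.91 ± 0.11) beside INHBA and AXL.

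Guidance cues moved in both directions. Of 30 semaphorins, plexins and neuropilins 15 rose and 8 fell. The 4 largest changes were all falls: SEMA6A, a transmembrane semaphorin, read 9.14 and 9.08 on the scrambled arrays and 6.14 and 6.52 on the knockdown arrays (-2.78 ± 0.12), and PLXNC1, the receptor of SEMA7A, read 9.52 and 9.37 on the scrambled arrays and 6.95 and 6.86 on the knockdown arrays, 5.81-fold lower (-2.54 ± 0.084). SEMA5A (-1.41 ± 0.098) and SEMA3D (-1.30 ± 0.083) followed. SEMA7A itself, named after its values were seen, rose from 8.93 and 8.99 to 10.13 and 10.10 (1.16 ± 0.078), so ligand and receptor changed in opposite directions. Of 20 ephrins and Eph receptors 9 rose and 3 fell, with rises of the receptors EPHB3 (1.48 ± 0.094) and EPHB1 (1.09 ± 0.085) and of EFNA1 (0.46 ± 0.12), and a fall of EPHA5 (-0.84 ± 0.12). Without 1 array, the number that rose was 4 without knockdown array A and 3 without knockdown array B or scrambled array B, and the number that fell was 1 without any 1 of the 4 arrays. EFNA1 lost its call without knockdown array B or scrambled array B.

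Rises outnumbered falls among collagens and among integrins and laminins. Of 30 collagen genes 17 rose and 1 fell (median 0.30). The basement membrane chain COL4A1 (1.53 ± 0.081) led, followed by COL12A1 (1.06 ± 0.087), COL5A3 (1.05 ± 0.10) and COL5A2 (1.05 ± 0.081). Of 28 integrins and laminins 16 rose and 3 fell (median 0.32). ITGA10, a collagen-binding integrin subunit, read 7.26 and 7.40 on the scrambled arrays and 10.40 and 10.31 on the knockdown arrays, 8.15-fold higher (3.03 ± 0.094). LAMA4 (1.57 ± 0.091) and ITGA9 (1.53 ± 0.10) rose and the laminin chain LAMA1 fell by 1.44 ± 0.091. Cadherins, junction and adhesion molecules gave 5 rises and 4 falls among 18, with MCAM (1.33 ± 0.077) rising beside CDH19 and CEACAM1 and L1CAM falling. For that list, the number that rose was 3 without knockdown array A.

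Extracellular proteases and their inhibitors held the largest rise and the largest fall among all listed genes, with 17 of 36 rising and 4 falling. CST1, a secreted cystatin, read 5.15 and 4.67 on the scrambled arrays and 9.75 and 9.98 on the knockdown arrays, the largest rise of all genes (31.1-fold, 4.96 ± 0.27, limma adjusted p = 3.12e-07). Its neighbour CST2 rose too (2.56 ± 0.12), and probes of these near-identical cystatins may read more than 1 of them. SERPINB10 rose from 3.39 and 3.51 to 7.52 and 7.40 (4.01 ± 0.098). MME, the endopeptidase neprilysin, read 7.62 and 8.20 on the scrambled arrays and 4.71 and 4.32 on the knockdown arrays, a 10.5-fold fall (-3.39 ± 0.18). In fits without 1 array, the number that fell was 2 without knockdown array B.

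**Figure D3:**
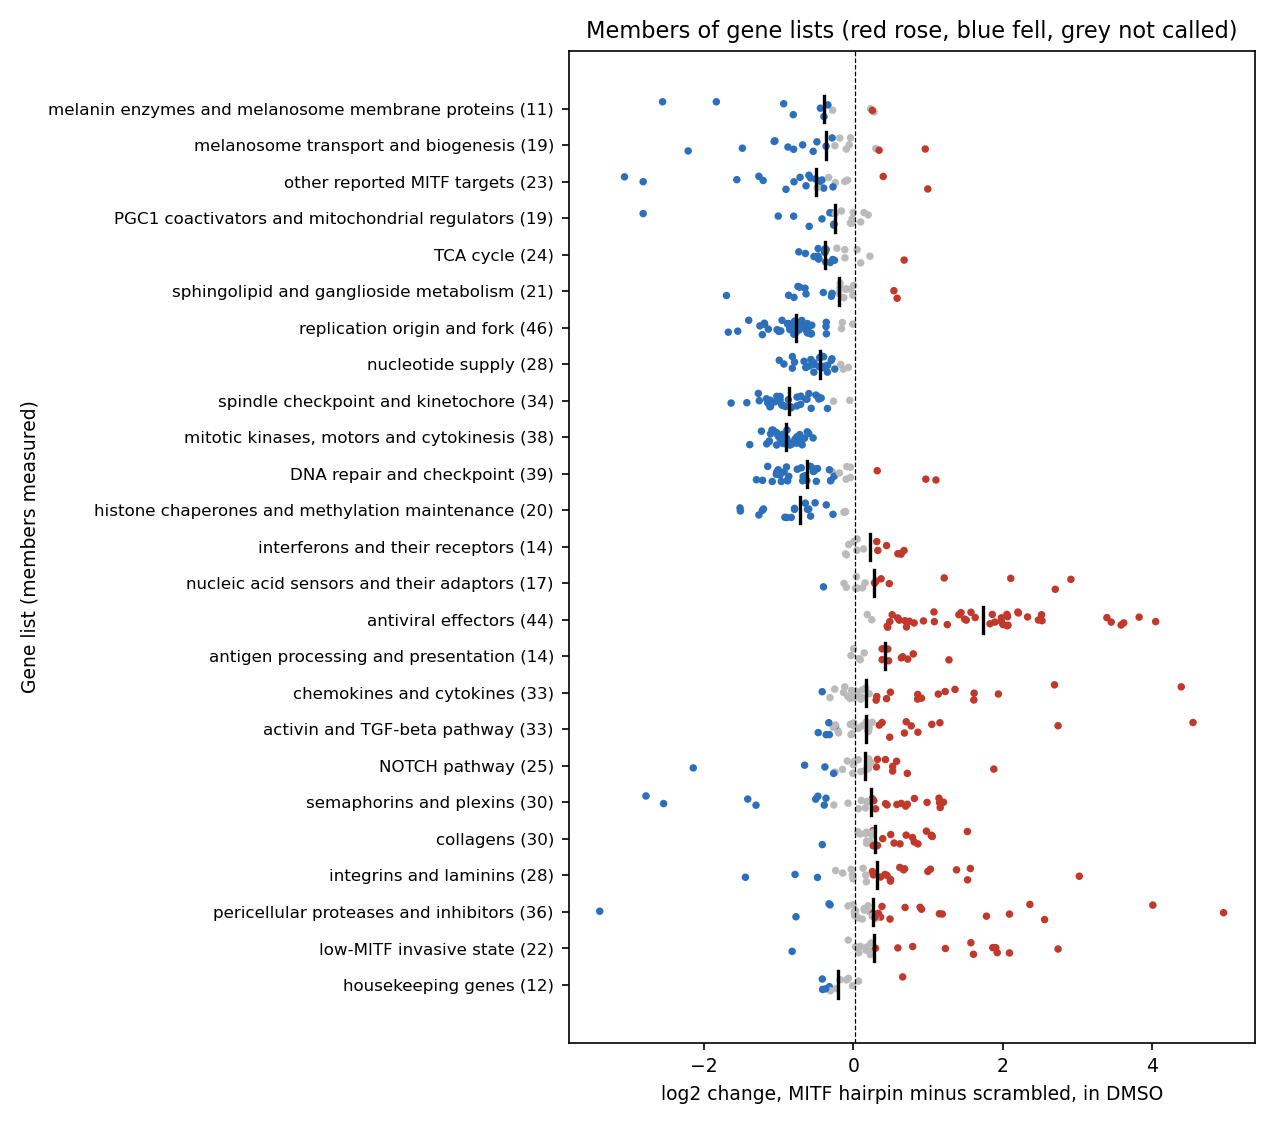
Log2 change on MITF knockdown in DMSO (horizontal axis) of every measured member of 25 gene lists (rows, with the number of members), red for members that rose, blue for members that fell and grey for members not called. Black bars mark list medians and the dashed line the median of all genes (0.02); the replication, kinetochore and mitotic lists lie left of it almost entirely and the antiviral list lies right of it.

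Genes of cell division fell at each stage listed, from entry into S phase to cytokinesis. Of 28 cyclins, kinases, inhibitors and E2F factors of G1 and S phase 15 fell and 2 rose. CDC25A, the phosphatase that activates CDK2, read 8.55 and 8.58 on the scrambled arrays and 7.01 and 7.03 on the knockdown arrays, 2.93-fold lower (-1.55 ± 0.077, limma adjusted p = 1.78e-07). The repressor E2F8 (-1.24 ± 0.086) and the pocket protein gene RBL1 (-0.89 ± 0.10) fell as well. CDKN2B, which encodes the CDK4 and CDK6 inhibitor p15, read 8.57 and 8.68 on the scrambled arrays and 9.81 and 9.89 on the knockdown arrays and rose by 1.22 ± 0.082. CDKN1A, which encodes p21 and is named after its values were seen, changed by 0.12 ± 0.096 and was not called. Without 1 array, the number that rose was 1 without knockdown array A or knockdown array B.

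Of 46 replication origin and fork genes 43 fell and 0 rose (median -0.76), and the list's mean level was 8.96 and 9.10 on the scrambled arrays and 8.24 and 8.25 on the knockdown arrays. The nuclease and helicase DNA2 read 7.5 and 7.59 on the scrambled arrays and 5.93 and 5.82 on the knockdown arrays (-1.67 ± 0.10). POLE2 (-1.55 ± 0.14), a subunit of the leading-strand polymerase, CLSPN (-1.40 ± 0.12), a checkpoint mediator, and WDHD1 (-1.25 ± 0.13) followed. Subunits of the origin recognition complex, the helicase, the polymerases and the clamp loader were all among those that fell. Nucleotide supply fell in 25 of 28 members with 0 rising (median -0.45), among them the kinase gene DCK (-0.99 ± 0.087), the ribonucleotide reductase subunit RRM2 (-0.93 ± 0.15), SHMT1 (-0.82 ± 0.12) and DCTPP1 (-0.81 ± 0.080).

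In mitosis, 32 of 34 kinetochore and spindle checkpoint genes fell and 0 rose (median -0.86). BUB1B, a checkpoint kinase, read 9.68 and 9.88 on the scrambled arrays and 8.16 and 8.13 on the knockdown arrays (-1.64 ± 0.12), with CENPI (-1.42 ± 0.11), SPC24 (-1.27 ± 0.093) and the cohesin protector SGO1 (-1.26 ± 0.11) next. All 38 of 38 mitotic kinases, motors and cytokinesis genes fell (median -0.90), led by the centriole kinase PLK4 (-1.39 ± 0.11), DLGAP5 (-1.23 ± 0.11), the motor KIF14 (-1.16 ± 0.10) and HMMR (-1.13 ± 0.094). Their mean level was 9.35 and 9.44 on the scrambled arrays and 8.5 and 8.5 on the knockdown arrays. Cohesin and condensin genes fell in 14 of 19 cases and rose in 0, with NCAPG2 (-1.16 ± 0.10), ESCO2 (-1.11 ± 0.079), CDCA5 (-1.06 ± 0.097) and NCAPH (-1.03 ± 0.10) in front.

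DNA repair genes fell in 30 of 39 cases (median -0.62), including the homologous recombination gene XRCC2 (-1.30 ± 0.13), the helicase gene BLM (-1.21 ± 0.10) and RAD51AP1 (-1.14 ± 0.084). The 3 that rose stood apart from this trend: FANCL, the ubiquitin ligase of the Fanconi pathway, by 1.11 ± 0.093, ERCC1, a nuclease subunit of excision repair, by 0.97 ± 0.097, and the kinase gene ATM by 0.32 ± 0.11. ERCC1 and ATM were named after their values were seen. Histone chaperones and genes of methylation maintenance fell in 17 of 20 cases and rose in 0 (median -0.71). The nuclear lamina gene LMNB1 (-1.52 ± 0.13), the remodeller HELLS (-1.51 ± 0.13), LIN9 (-1.26 ± 0.11) and CHAF1B (-1.22 ± 0.094) fell most. ATM lost its call without any 1 of the 4 arrays.

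Promoter letters differed between the lists of division genes. The cell cycle homology region, TTTGAA on either strand, a site of the DREAM and MuvB complexes in mitotic promoters, occurred in 25 of 34 windows of the mitotic list (73.5%) and 46.4% of the kinetochore list, against 11.9% of all windows. It occurred in 0 of 39 windows of the replication list. The E2F letters, TTTCGCGC or TTTGGCGC on either strand, occurred in 10 of 39 replication windows (25.6%), in 5.88% of the mitotic list and in 1.66% of all windows. Among all genes that fell at least 2-fold 19.3% held the former and 3.78% the latter. The stretches show mitotic promoters (HMMR, CCNB2 and PRC1, with TTTGAA in capitals) and those of MCM6, a subunit of the replicative helicase, and CDC25A (with E2F letters in capitals), from RefSeq, build GRCh38.p14, along the strand of the gene and upstream of its start.
HMMR, chr5:163460584-163460631 (+ strand): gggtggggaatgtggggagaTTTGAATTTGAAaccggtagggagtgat
CCNB2, chr15:59105097-59105142 (+ strand): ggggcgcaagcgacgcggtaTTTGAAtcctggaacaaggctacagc
PRC1, chr15:90994536-90994575 (- strand): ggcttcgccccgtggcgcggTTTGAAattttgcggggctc
MCM6, chr2:135876502-135876615 (- strand): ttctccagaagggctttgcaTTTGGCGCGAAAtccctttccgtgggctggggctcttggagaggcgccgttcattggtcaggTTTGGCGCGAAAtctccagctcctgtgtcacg
CDC25A, chr3:48188434-48188481 (- strand): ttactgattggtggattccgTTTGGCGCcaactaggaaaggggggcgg
CCNB2 (-1.09 ± 0.11), PRC1 (-0.89 ± 0.089) and MCM6 (-0.97 ± 0.11), picked for these promoters, fell. So did all 38 genes of the mitotic list and 43 of the 46 of the replication list, with or without the letters. The falls of the genes shown therefore say nothing about the letters. MCM6 carries its letters in a pair of separate runs in which both strands match.

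**Figure D4:**
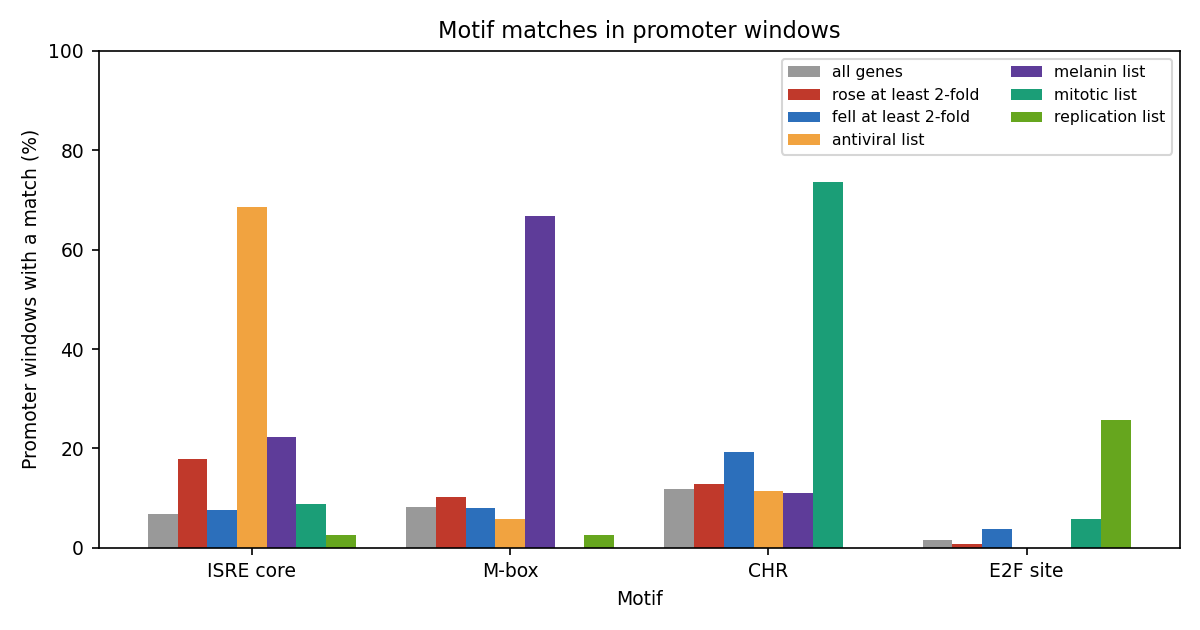
Share of promoter windows (percent, vertical axis from 0 to 100) that hold each of 4 motifs (horizontal axis), for all tested genes with a window, genes that rose or fell at least 2-fold, and 4 gene lists. The tallest bars are the interferon element in the antiviral list (68.6%), the M-box in the melanin list (66.7%) and the cell cycle homology region in the mitotic list (73.5%), whereas the M-box bar of all genes that fell at least 2-fold (7.98%) is no taller than that of all genes (8.25%).

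Death and stress genes showed no common direction. Among 23 p53 targets 4 rose and 6 fell (43.5% called, against 33.2% of all genes): PHLDA3 (0.64 ± 0.086) and SESN2 (0.50 ± 0.12) rose, DDB2 (-0.47 ± 0.081) and CCNG1 (-0.46 ± 0.081) fell. Without 1 array, the number that fell was 3 without knockdown array B or scrambled array B. In the BCL2 family of 15 the proapoptotic BCL2L11 (0.84 ± 0.098) and the survival gene MCL1 (0.68 ± 0.077) rose, HRK (-0.68 ± 0.084) fell, and BBC3 (0.41 ± 0.12) rose, 3 rises and 4 falls in all. The called share of the family was 46.7%, against 33.2% of all genes. For the family, the number that fell was 2 without scrambled array B. Of 23 genes of the ATF4 and amino acid response 4 rose and 10 fell. The amino acid transporter SLC7A5 (-1.14 ± 0.086) and the serine synthesis enzymes PSAT1 (-1.11 ± 0.089) and PHGDH (-0.66 ± 0.081) fell, while the stress factor DDIT3 (0.71 ± 0.083) rose. For this response, the number that fell was 5 without knockdown array B or scrambled array B. Heat shock and ER chaperones gave 6 rises and 5 falls among 21, led by DNAJB9 (1.11 ± 0.12), DNAJC3 (0.67 ± 0.094) and HSPA6 (0.50 ± 0.15), with the mitochondrial chaperonin HSPD1 (-0.44 ± 0.096) falling. Among chaperones the number that rose was 3 without knockdown array A, and the number that fell was 2 without knockdown array B and 3 without scrambled array B. Oxidative stress genes fell in 11 of 21 cases and rose in 2 (median -0.27). The glutathione synthesis subunit GCLM (-1.03 ± 0.099), SOD2 (-0.64 ± 0.083), TXN (-0.61 ± 0.086) and HMOX1 (-0.53 ± 0.096) fell most. Among oxidative stress genes the number that rose was 1 without any 1 of the 4 arrays, and the number that fell was 5 without knockdown array B and 7 without scrambled array B. BBC3 lost its call without knockdown array B or scrambled array B or after a repeated quantile normalization and HSPA6 without knockdown array B or scrambled array B or knockdown array A or after a repeated quantile normalization.

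Among mitochondrial and TCA cycle genes the called changes were nearly all falls, and in 3 of the 4 lists most members were not called. The called share was 47.4% of the regulators and 75% of the TCA cycle list. It was 46.7% of the respiratory chain and 47.5% of the mitochondrial ribosome, against 33.2% of all genes. Median levels in scrambled DMSO cells were 10.0 for the cycle and the chain and 9.48 for the ribosome, against 6.77 for all genes. In the highest of the 4 sets by level 28.7% of genes fell and 16.1% rose. Among 19 coactivators and regulators of mitochondria 9 fell and 0 rose. Beside PPARGC1A (-2.81 ± 0.16) these included TFB1M (-1.0 ± 0.17), PPARG (-0.80 ± 0.13) and the mitochondrial DNA factor TFAM (-0.59 ± 0.11). Without 1 array, the number that fell was 5 without knockdown array A or knockdown array B. The TCA cycle list, which also holds genes around the cycle, fell in 17 of 24 cases and rose in 1 (median -0.37). The pyruvate dehydrogenase subunit DLAT (-0.73 ± 0.079) and the cytosolic enzyme IDH1 (-0.64 ± 0.086) fell. So did PDK1 (-0.53 ± 0.081), a kinase that inhibits pyruvate dehydrogenase. PC, which feeds oxaloacetate into the cycle, rose (0.68 ± 0.085). For the cycle, the number that rose was 2 without knockdown array B, and the number that fell was 8 without knockdown array B. The respiratory chain and ATP synthase fell in 21 of 45 cases and rose in 0 (median -0.23), with no member past CYC1 (-0.51 ± 0.083). UQCRB (-0.41 ± 0.098), COX7B (-0.41 ± 0.11) and NDUFA9 (-0.39 ± 0.098) followed. For the chain, with its small changes, the number that fell was 9 without knockdown array A and 3 without knockdown array B or scrambled array B. Mitochondrial ribosomal proteins fell in 19 of 40 cases and rose in 0, led by MRPL44 (-0.96 ± 0.10), MRPS5 (-0.66 ± 0.094), MRPS2 (-0.50 ± 0.090) and MRPL39 (-0.49 ± 0.083). Among these, the number that fell was 10 without knockdown array B or scrambled array B. UQCRB and NDUFA9 lost their calls without knockdown array B or scrambled array B and COX7B without scrambled array B or knockdown array A.

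Glycolysis gave 1 rise and 7 falls among 21 genes (8 of 21 called, near the 33.2% of all genes). The enolase ENO2 (-1.17 ± 0.084) and PFKP (-0.73 ± 0.081) fell, as did PFKFB2 (-0.64 ± 0.084), and its relative PFKFB4 (0.53 ± 0.093) rose. The hypoxia list gave 3 rises and 2 falls among 20, a called share of 25% that is below the 33.2% of all genes: the collagen hydroxylases P4HA2 (0.77 ± 0.080) and P4HA1 (0.39 ± 0.090) and ANGPTL4 (0.44 ± 0.099) rose and PDK1 (-0.53 ± 0.081) fell. Without 1 array the number that fell was 1 without any 1 of the 4 arrays. Sterol and fatty acid synthesis fell in 8 of 23 cases and rose in 1 (9 of 23 called, near the 33.2% of all genes), with LSS (-0.92 ± 0.096), HMGCS1 (-0.75 ± 0.097), ELOVL6 (-0.75 ± 0.12) and MVK (-0.69 ± 0.093) in front. For sterol genes the number that rose was 2 without scrambled array B, and the number that fell was 5 without knockdown array B. Of 21 genes of sphingolipid and ganglioside metabolism 10 fell and 2 rose. UGCG, which makes the first glycosphingolipid, read 10.62 and 10.80 on the scrambled arrays and 9.11 and 8.91 on the knockdown arrays, 3.24-fold lower (-1.70 ± 0.11). The sialyltransferases ST3GAL5 (-0.87 ± 0.098) and ST3GAL6 (-0.79 ± 0.089), the former the maker of the ganglioside GM3, fell with it, and so did SGMS2 (-0.74 ± 0.13). P4HA1 lost its call without knockdown array A and ANGPTL4 without knockdown array B.

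In the lysosome list of 35 genes hydrolase genes such as CTSF (0.85 ± 0.089), ARSB (0.69 ± 0.085) and GAA (0.64 ± 0.085) were among 8 that rose, and ASAH1 (-0.63 ± 0.079), an acid ceramidase and reported MITF target, was among 8 that fell. The other 7 that fell were all subunits of the V-ATPase, the proton pump of lysosomes, such as ATP6V1B2 (named after its values were seen; -0.62 ± 0.087). The called share of the lysosome list was 45.7%, against 33.2% of all genes. For the list, the number that fell was 5 without knockdown array B or scrambled array A. Autophagy and mTORC1 regulators gave 4 rises and 7 falls among 33 (11 of 33 called, near the 33.2% of all genes), with the GTPases RRAGD (-1.21 ± 0.086) and RRAGC (-0.60 ± 0.093) and FNIP2 (-0.67 ± 0.088) falling and WIPI1 (0.75 ± 0.078) rising. For these, the number that rose was 1 without knockdown array A or scrambled array B and 2 without knockdown array B, and the number that fell was 4 without knockdown array B or scrambled array B. Ribosome biogenesis genes fell in 10 of 21 cases and rose in 1, with DKC1 (-0.54 ± 0.11), FBL (-0.52 ± 0.082), MYC (-0.39 ± 0.098) and NPM1 (-0.35 ± 0.084) in front. Of these, the number that rose was 0 without any 1 of the 4 arrays, and the number that fell was 5 without knockdown array A, 2 without knockdown array B and 3 without scrambled array B. The small RNA machinery gave 1 rise and 5 falls among 15 (6 of 15 called, near the 33.2% of all genes): LIN28B (-0.87 ± 0.10), DROSHA (-0.53 ± 0.080), AGO4 (-0.52 ± 0.081) and DICER1 (-0.49 ± 0.081) fell. For that list, the number that rose was 0 without knockdown array A or knockdown array B or scrambled array A. MYC lost its call without knockdown array B or scrambled array B and NPM1 without knockdown array B.

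Markers of other cell types and reference genes were checked beside these results. Of 7 fibroblast markers FAP (-0.84 ± 0.081) and COL1A2 (-0.41 ± 0.083) fell and LUM (0.39 ± 0.085) and PDGFRA (0.32 ± 0.11) rose, while THY1 (0.20 ± 0.13), PDGFRB (0.17 ± 0.096) and DCN (0.02 ± 0.086) were not called. For these, the number that rose was 1 without knockdown array A or scrambled array A or scrambled array B. None of 6 keratinocyte markers was called, KRT5 reading 4.28 and 4.41 on the scrambled arrays and 4.46 and 4.55 on the knockdown arrays, with changes between -0.14 (DSG3) and 0.17 (IVL). Here the number that rose was 1 without scrambled array A. Of 6 endothelial markers KDR fell and TEK rose by 0.37 ± 0.10, a called share of 33.3%, near the 33.2% of all genes. PECAM1 changed by 0.05 ± 0.088 and was not called. In this list the number that rose was 0 without knockdown array B and 2 without scrambled array A. In the melanocyte list S100B (0.56 ± 0.084) and S100A1 (0.41 ± 0.099) rose as MITF, PAX3, PMEL and MLANA fell. In that list the number that rose was 1 without knockdown array A or scrambled array B. PDGFRA lost its call without knockdown array A or scrambled array A or scrambled array B or after a repeated quantile normalization, TEK without scrambled array A or knockdown array B or after a repeated quantile normalization and S100A1 without knockdown array A or scrambled array B.

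The list of cancer testis antigens and other MAGE genes gave 2 rises and 1 fall among 14. Its called share was 21.4%, below the 33.2% of all genes. MAGED2 (0.95 ± 0.090) and MAGED1 (0.43 ± 0.087), which belong to the MAGE family but are not cancer testis antigens, rose. The antigen gene MAGEA4 (-0.27 ± 0.084) fell. For that list, the number that fell was 0 without knockdown array A or knockdown array B and 2 without scrambled array A. Of 12 genes used as references B2M rose and YWHAZ (-0.41 ± 0.085), TFRC (-0.41 ± 0.11), SDHA (-0.37 ± 0.083) and PPIA (-0.32 ± 0.088) fell. ACTB (-0.09 ± 0.092), GAPDH (-0.06 ± 0.093), GUSB (-0.01 ± 0.081), POLR2A (0.07 ± 0.078), TBP (-0.23 ± 0.086), HPRT1 (-0.31 ± 0.11) and PGK1 (-0.18 ± 0.084) were not called. The called share of the references was 41.7%, against 33.2% of all genes. Among references the number that fell was 2 without knockdown array A and 1 without knockdown array B. MAGEA4 lost its call without knockdown array A or knockdown array B or scrambled array B or with robust, level-dependent moderation, TFRC without knockdown array A or knockdown array B or scrambled array B, PPIA without knockdown array A or knockdown array B or scrambled array A or after a repeated quantile normalization and SDHA without knockdown array B.

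Several of the 30 largest rises belong to no list. CRLF2, a subunit of the receptor for the cytokine TSLP, read 3.98 and 3.71 on the scrambled arrays and 7.64 and 7.47 on the knockdown arrays (3.71 ± 0.14, limma adjusted p = 3.04e-08), whereas TSLP, named after its values were seen, changed by -0.04 ± 0.10 and was not called. ITIH6 (3.64 ± 0.11) and ITIH5 (3.24 ± 0.13), heavy chains of the inter-alpha-trypsin inhibitor family that bind hyaluronan, rose together. The salivary mucin MUC7 (3.51 ± 0.12) and the salivary protein BPIFA2 (3.06 ± 0.094) rose as well, as did megalin, LRP2 (3.08 ± 0.13), an endocytic receptor. FAM131B (2.92 ± 0.14), SCRG1 (2.90 ± 0.13), RFTN2 (2.66 ± 0.10), the metalloprotease ADAMTS9 (2.65 ± 0.082), the neuronal membrane protein SLITRK6 (2.62 ± 0.13) and the TNF receptor adaptor TRAF1 (2.56 ± 0.11) complete them. PTGS2, which encodes the inducible cyclooxygenase COX-2, read 5.25 and 5.58 on the scrambled arrays and 8.16 and 8.39 on the knockdown arrays (2.86 ± 0.18), and HPGD, which inactivates prostaglandins and is among the 30 largest falls, read 8.19 and 8.14 on the scrambled arrays and 6.26 and 6.01 on the knockdown arrays (-2.04 ± 0.098). The limma adjusted p of the 30 was at most 1.05e-05.

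Among the 30 largest falls, SPATS1 read 8.26 and 8.54 on the scrambled arrays and 4.95 and 4.84 on the knockdown arrays, 11.4-fold lower (-3.51 ± 0.11). The serotonin receptor HTR2B read 8.02 and 8.02 on the scrambled arrays and 5.69 and 5.47 on the knockdown arrays (-2.44 ± 0.11), and BEST1, a chloride channel known from the retinal pigment epithelium, read 9.08 and 9.17 on the scrambled arrays and 7.06 and 6.82 on the knockdown arrays (-2.18 ± 0.095). The kinases RPS6KA5 (-2.42 ± 0.10) and STK32A (-2.65 ± 0.10) fell, as did CABLES1 (-2.51 ± 0.077), a binding partner of cyclin-dependent kinases. Regulators of transcription among them were HOXB13 (-2.01 ± 0.087), ZNF280A (-2.18 ± 0.085), CDCA7L (-2.04 ± 0.13) and the histone methyltransferase gene PRDM7 (-2.36 ± 0.22), whose near-identical relative may share its probes. The peptide hormone UTS2B (-2.45 ± 0.10), the bile acid conjugating enzyme BAAT (-2.35 ± 0.13), the tubulin-modifying TTLL6 (-2.21 ± 0.13) and the potassium channel subunit KCNAB2 (-1.89 ± 0.10) also fell. CA8 (-2.58 ± 0.12), DIPK1A (-2.18 ± 0.10), AHNAK2 (-2.12 ± 0.085), NAV2 (-2.11 ± 0.087), SLAMF7 (-2.0 ± 0.14), LONRF1 (-1.90 ± 0.091) and the enamel matrix gene AMBN (-1.89 ± 0.077) complete the set, with limma adjusted p at most 1.69e-05.

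The same hairpin contrast in the 4 PLX4032 arrays, which share no array with the DMSO contrast but were normalized and fitted with it, called 5243 genes (28.5%). Of these 3030 were called in the same direction in DMSO, 49.6% of the DMSO calls and 57.8% of the PLX4032 calls, and 215 were called in opposite directions. Of the 647 genes that changed at least 2-fold in DMSO, 600 had the same sign under PLX4032 and 546 were also called there in that direction. Across genes Pearson's r between the 2 changes was 0.64, with genes not independent of each other. The rise of FST (4.55 ± 0.091 in DMSO and 4.37 ± 0.091 under PLX4032, difference -0.18 ± 0.13) and the fall of PPARGC1A (-2.81 ± 0.16 and -2.71 ± 0.16, difference 0.11 ± 0.23) were among those whose difference between settings was not called.

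The difference between the 2 contrasts was called for 2176 genes (11.8%), of which 1535 were also called in DMSO. Over all genes the change under PLX4032 was the higher in 1283 and the lower in 893. Among genes that rose at least 2-fold in DMSO it was the smaller rise in 155 and the larger in 56, and among those that fell at least 2-fold the weaker fall in 126 and the stronger in 23. Since these genes were picked for a large change in DMSO, a smaller value in the other setting is favoured by the choice, and these counts are a description. SERPINB10 (0.28 ± 0.098 under PLX4032), CRLF2 (0.21 ± 0.14) and HTR2B (0.20 ± 0.11) were far from zero in DMSO and not called under PLX4032, with differences of -3.74 ± 0.14, -3.50 ± 0.19 and 2.64 ± 0.16. HEY1 (0.19 ± 0.096 under PLX4032, difference 2.34 ± 0.14) and HPGD (-0.14 ± 0.098, difference 1.89 ± 0.14) showed the same pattern. The remaining genes with the 10 largest differences were DCSTAMP, a cell fusion protein (2.20 ± 0.099 in DMSO and -1.75 ± 0.099 under PLX4032), SPATS1 (-0.69 ± 0.11 under PLX4032), CST1 (2.16 ± 0.27), CCN2 (-0.91 ± 0.11), TRPM1 (-3.43 ± 0.099), the matrix gene ABI3BP (0.42 ± 0.12 and 3.07 ± 0.12) and phospholamban, PLN (0.94 ± 0.12 and -1.59 ± 0.12). DCSTAMP, CCN2 and PLN were called in opposite directions in the 2 settings. Some genes moved more under PLX4032, such as SLITRK6 (4.25 ± 0.13, difference 1.63 ± 0.18) and AMBN (-3.56 ± 0.077, difference -1.67 ± 0.11). TRPM1 lost its call without knockdown array B or scrambled array A and ABI3BP without knockdown array B or scrambled array A or knockdown array A or after a repeated quantile normalization.

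**Figure D5:**
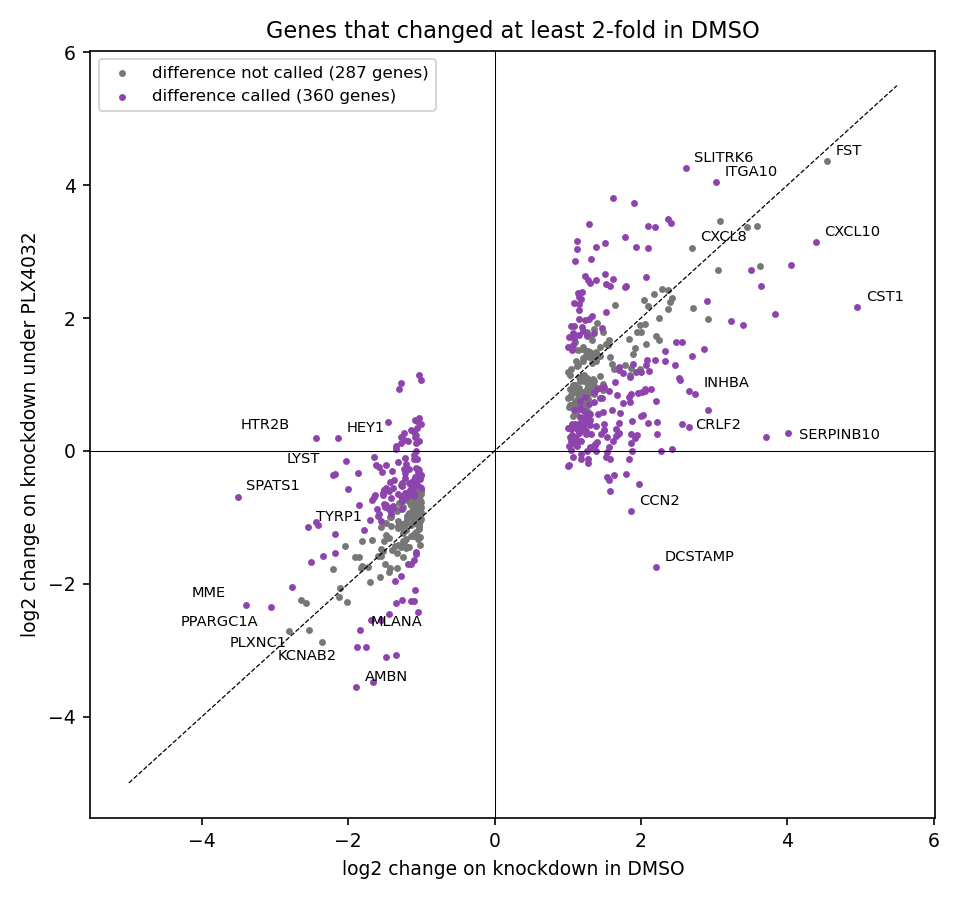
Log2 change on MITF knockdown under PLX4032 (vertical axis) against that in DMSO (horizontal axis) for the 647 genes called and changed at least 2-fold in DMSO, purple where the difference between the 2 changes was called and grey where it was not. The dashed line marks equal changes; SERPINB10, CRLF2, HTR2B and HEY1 lie near zero on the vertical axis, and SLITRK6, ITGA10 and AMBN lie beyond the line.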

How the data were processed

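RNA from 8 samples of COLO829 cells (4 groups of 2) was measured on Affymetrix Human Gene 1.0 ST arrays. The deposited values are log2 signals of 32321 probe sets, made by the authors with RMA per the submitters' processing notes; for its version and genome build, the sources used here give nothing. RMA sets the arrays on a common distribution, so changes are relative to the bulk of probe sets. Genes were named from the platform annotation: 19158 probe sets carry 1 gene symbol, 1388 several and 11775 none, and only the first kind was used. The values were fitted with limma 3.58.1 in R 4.3.3 over all 8 arrays, which share 1 estimate of the spread, with Benjamini-Hochberg adjustment over 18404 genes, and the fit was tested on simulated data. Figures and motif searches used Python 3.11.15. The gene lists and genes were chosen with earlier results of these data known, and lists are described by counts without a test; 1 list is not reported here.

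The genes named were MITF, TYR, MLANA, TRPM1 and PPARGC1A, the 30 largest rises and falls among called genes, the 4 largest called changes of each list (all members of lists of at most 12, of which CDH5, CLDN5, KRT1, KRT10, KRT14 and VWF were not called), and the 10 largest differences between treatments. ATM, ATP6V1B2, CCNB2, CDKN1A, CXCL9, ERCC1, HPS1, HPS5, IFITM2, IFNB1, ISG15, MCM6, MX1, PRC1, SEMA7A, SLC1A4, TBK1 and TSLP were named after their values were seen. Alternatives were fits of 4 arrays, a replicate block, other moderation, scaling, filter, probe set and threshold choices, and leaving out each array.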

Additional observations from a re-analysis of the deposited data

Results flagged for a closer look

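The difference between the knockdown change under PLX4032 and that in DMSO was called for 2176 genes, by a limma contrast over the 8 arrays adjusted over all genes. Of the genes named above, the following were among them. The number in parentheses is the log2 change under PLX4032 minus that in DMSO, with no explanation weighed for any of them. The highest limma adjusted p among them was 0.0499.

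DCSTAMP (-3.96), SERPINB10 (-3.74), CRLF2 (-3.50), CST1 (-2.80), CCN2 (-2.78), PLN (-2.53), FAM131B (-2.30), ADAMTS9 (-2.30), TRAF1 (-2.15), ITGA9 (-1.92), INHBA (-1.88) and OAS2 (-1.77) rose in DMSO and had a lower value under PLX4032. RFTN2 (-1.76), IL11 (-1.71), DUSP5 (-1.62), RSAD2 (-1.50), JAG1 (-1.44), PTGS2 (-1.32), HPS5 (-1.32), PC (-1.29), ITIH5 (-1.29), RTP4 (-1.26), XAF1 (-1.25) and CXCL10 (-1.25) did so as well. ITIH6 (-1.17), IDO1 (-1.13), ERCC1 (-1.10), EPHB1 (-0.99), CST2 (-0.93), FANCL (-0.91), DHX58 (-0.90), SEMA7A (-0.89), CTSF (-0.89), MAGED2 (-0.84), BAMBI (-0.82) and IRF7 (-0.82) followed. SPRY4 (-0.80), SLC24A5 (-0.80), MUC7 (-0.78), TRIM21 (-0.75), WIPI1 (-0.72), ATM (-0.72), CD274 (-0.67), TCF7L2 (-0.65), SCRG1 (-0.65), DNAJC3 (-0.63), TLR3 (-0.62) and SOX8 (-0.62) followed. CEACAM1 (-0.61), ZEB1 (-0.60), DLL4 (-0.56), IFNL1 (-0.55), HLA-DMA (-0.53), CD68 (-0.51), SNAI1 (-0.49), PFKFB4 (-0.45), SLC1A4 (-0.44) and DDIT3 (-0.41) followed.

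ABI3BP (2.65), IL24 (2.19), VCAN (1.83), CDH19 (1.68), SLITRK6 (1.63), NGFR (1.61), CCN1 (1.19), TNC (1.13), ITGA10 (1.02), FLT1 (0.97), COL5A2 (0.84) and MCAM (0.70) rose in DMSO and had a still higher value under PLX4032. COL4A1 (0.57), ID1 (0.47) and RXRG (0.41) did so as well.

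SPATS1 (2.82), HTR2B (2.64), HEY1 (2.34), SEMA3D (2.24), HPGD (1.89), LYST (1.84), BEST1 (1.83), SLAMF7 (1.42), TYRP1 (1.41), UTS2B (1.37), RPS6KA5 (1.30) and GCLM (1.18) fell in DMSO and had a higher value under PLX4032. PPARG (1.10), SHMT1 (1.08), MME (1.07), SGMS2 (1.05), E2F8 (0.98), BUB1B (0.97), HMOX1 (0.95), ETS1 (0.95), DNA2 (0.94), HELLS (0.93), ZNF280A (0.93) and DDB2 (0.86) did so as well. LAMA1 (0.84), CABLES1 (0.83), LIN9 (0.78), BAAT (0.77), SEMA6A (0.72), GYG2 (0.72), ZEB2 (0.72), LMNB1 (0.71), DIPK1A (0.64), FNIP2 (0.64), NFKBIZ (0.63) and RRAGC (0.62) followed. DLGAP5 (0.60), SOD2 (0.55), STX7 (0.54), SGO1 (0.54), PLK4 (0.53), KIF14 (0.51), SPC24 (0.51), COL1A2 (0.49), PRC1 (0.48), DCK (0.48), DICER1 (0.46) and CCNG1 (0.40) followed.

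TRPM1 (-3.03), MET (-2.48), AMBN (-1.67), RAB27A (-1.61), MLPH (-1.38), ELOVL6 (-1.19), KCNAB2 (-1.07), EPHA5 (-1.04), TRIM63 (-0.98), MYC (-0.96), COX7B (-0.94) and HMGCS1 (-0.94) fell in DMSO and had a still lower value under PLX4032. MLANA (-0.86), MRPL44 (-0.77), PFKP (-0.59), SLC7A5 (-0.56), PDK1 (-0.48), TXN (-0.48), OCA2 (-0.47) and ATP7A (-0.43) did so as well.

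SLC45A2 (-2.49), PTPN2 (-0.78), SNAI2 (-0.52) and TYR (-0.44) were not called in DMSO and had a lower change under PLX4032.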

How the results depend on the processing

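With a threshold of 0.01 on the adjusted p, limma called 3744 genes in DMSO (1534 rose and 2210 fell), 3491 under PLX4032 and 1124 for the difference between the treatments. Leaving out each array in turn gave 3723 to 6062 calls in DMSO, of which 1645 to 2666 rose and 2034 to 3396 fell, 3702 to 4751 calls under PLX4032 and 1278 to 2132 for the difference. The counts moved by over 1.5 times without knockdown array B in DMSO (3723 calls in all, 1689 rises, 2034 falls and 1278 differences), without knockdown array A in DMSO (1645 rises and 1427 differences), without scrambled array B in DMSO (2239 falls) and without scrambled array A under PLX4032 (1431 differences). The fall of MITF lay between -0.98 and -0.88 without 1 array. The letters A and B were not treated as pairs, since the correlation of same-letter deviations was over 0.1 for 1 of 6 pairs of groups. A fit with the letter as a replicate block called 6146 genes in DMSO, 5926 of them called without it, and 2176 differences. HLA-DMA changed sign to -0.13 as the mean of its probe sets. A repeated quantile normalization moved the median of all genes from 0.02 to -0.0006 and centring to 0.04, and the share of calls that rose from 43.4% to 45.4% and 46.0%. Without the dimmest 40% of genes, rises numbered 8 of the chemokines and cytokines, 11 of the collagens, 5 of the NOTCH list and 3 of the checkpoint list, as fewer genes were tested. After the repeated quantile normalization, falls numbered 5 among mitochondrial regulators, 3 in the activin and TGF-beta list and 1 among ephrins, and rises 2 among interferon feedback inhibitors and 9 among autophagy genes. With robust, level-dependent moderation, 13 sterol and 4 hypoxia genes fell and 8 autophagy genes rose. Where a setting moved a value, the cause was otherwise not tested.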

Other observations

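Gene families outside the lists were counted after the data were seen, on the same limma calls; among all genes 14.4% rose and 18.8% fell. Of 494 zinc finger genes with a ZNF symbol 128 fell and 21 rose, with a median change of -0.13. Of 71 RAB GTPases, which direct vesicle traffic, 21 fell and 2 rose. Potassium channel genes went the other way, with 20 rises and 6 falls among 87, as did protocadherins (12 rises and 4 falls among 42) and keratins (8 rises and 0 falls among 53, limma, at a median level of 4.65). Solute carriers gave 55 rises and 70 falls among 376. The called share was 30.2% of zinc finger, 32.4% of RAB, 29.9% of potassium channel and 33.2% of solute carrier genes, against 33.2% of all genes. It was 38.1% of protocadherins and 15.1% of keratins. Median levels were 7.91 for RAB and 5.08 for potassium channel genes, and the balance of rises and falls varied with level among all genes. Whether that of a family goes beyond its level was not tested. Families of sensory receptors were seldom called: 13 of 360 olfactory receptor genes rose and 5 fell, at a median level of 3.73, and 0 of 24 taste receptor genes rose and 1 fell by limma.

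By annotated kind of gene, 86 of 626 long noncoding RNA genes rose and 26 fell, and 17 of 173 microRNA genes rose and 2 fell. Protein coding genes showed the reverse balance, with 2468 rises and 3382 falls among 16897. Among all genes 14.4% rose and 18.8% fell. Rises also outnumbered falls among dim genes in general, with 6.02% rising and 1.74% falling in the lowest set by level. In the next set 922 rose and 584 fell. Whether the balance by kind of gene goes beyond that by level was not tested. The probe sets of microRNA genes read the precursor or its host transcript, and mature microRNAs were not measured.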
